A study of Mus musculus with 1111 samples.

Results

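Expression of 9 genes of the lysosome was followed in single microglia that carried no, little or much labelled plasma protein: *Npc1*, *Npc2*, *Lamp1*, *Lamp2*, *Cd68*, *Psap*, *Grn*, *Laptm5* and *Mcoln1*. They were chosen by name, as genes for sterol export, for proteins of the lysosomal membrane and for cargo of the lysosomal lumen, and made up 9 of the 35583 genes in the count tables. Microglia are the resident macrophages of the brain. They came from the brains of 3-month-old mice given plasma proteins tagged with the dye NHS-Atto647N 20 hours before isolation, and were sequenced 1 cell per well with Smart-seq2, which reads whole transcripts. The groups were defined by the dye signal of the cell: plasma none, plasma low and plasma high, called the none, low and high groups below. All come from injected mice, so no group is free of the injection. Of 987 cells used, 35.1% were of the none group, 35.6% of the low group and 29.4% (290 cells) of the high group. Strain, sex and the number of animals are not given in the sources used here. No label ties a cell to an animal, so each group is 1 sample of cells and no p-value is given.

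Each label also carries a TH number from 1 to 3, whose meaning is not stated. Reads were summed over cells for each group and TH number, and every ± below is the SD over the 3 TH numbers (n = 3) and so says nothing of the spread between mice. For every TH number, plasma none took well columns 1 to 8, plasma low columns 9 to 16 and plasma high columns 17 to 23 (to 24 in TH 3), so plate position and group cannot be told apart. The 9 sums held 21309816 to 49323522 reads. The median reads per cell by TH number were 175699 to 277222 in the none group, 194547.5 to 359773 in the low group and 228822 to 404743 in the high group. The median mitochondrial share of reads was 0.548 to 0.659%, 0.721 to 0.878% and 0.751 to 1.15% in the same order. The 8 microglia markers summed to 42988 to 50037 CPM (counts scaled to a common library total) in all 9 sums. Markers of border-associated macrophages summed to 0.217 to 1.34 CPM in the none group, 2.64 to 22.2 CPM in the low group and 0 to 4.50 CPM in the high group, with *Pf4*, *Cd163*, *Lyve1*, *F13a1*, *Ms4a7* and *Siglec1* at 0. In the same order, oligodendrocyte markers summed to 21.2 to 68.9, 28.6 to 60.9 and 56.4 to 83.7 CPM, neuron markers to 0 to 0.646, 0 to 4.88 and 0.209 to 58.1 CPM, and astrocyte markers to 1.62 to 6.93, 1.07 to 33.4 and 0.328 to 5.999 CPM. Endothelial markers reached at most 29.5 CPM, monocyte markers 8.42 CPM and red cell markers 4.65 CPM, while neutrophil and lymphocyte markers were all at 0. *Mog*, *Cldn11* and *Olig2* of the oligodendrocyte list, *Gad1* and *Slc17a7* of the neuron list, *Aldh1l1* and *Gja1* of the astrocyte list and *Cldn5*, *Ly6c1* and *Slco1a4* of the endothelial list were at 0. With the 2 cells that held 3 or more markers of another type left out, the median log2 ratio of the 9 genes between plasma high and plasma none, given below, was 0.29 in place of 0.30. The part of the markers in the other cells was not tested.

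As background, lysosomes digest what a cell takes up and return the products to it. Cholesterol freed in the lumen is bound by NPC2 and handed to NPC1, a membrane protein that passes it out of the lysosome, and loss of either protein causes Niemann-Pick disease type C. LAMP1 and LAMP2 are the abundant, heavily glycosylated proteins that line the lysosomal membrane, CD68 is their relative in macrophages, and LAPTM5 is a membrane protein of lysosomes in blood cells. Prosaposin, from *Psap*, is cut into saposins that help enzymes degrade sphingolipids, and progranulin, from *Grn*, travels with it to the lysosome. *Mcoln1* encodes TRPML1, a cation channel whose calcium release activates the phosphatase calcineurin and, through it, the transcription factor TFEB. TFEB and its relative TFE3 bind a motif with the letters CACGTG in promoters of lysosomal genes.

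For that reason the promoters were searched for CACGTG, which reads the same on both strands, from 250 bases before to 50 after the start site in RefSeq (GRCm38.p6). Promoters of 8 of the 9 genes matched by symbol, all but *Npc1*. The motif was present in those of *Lamp1* and *Mcoln1* and in no window of the other 6 genes. The *Lamp1* promoter held it 4 times, with first bases 61, 45, 28 and 15 bases before the start, and the *Mcoln1* promoter held it 2 times, 71 and 45 bases before the start. The stretches with these matches are shown because these were also the gene with the smallest SD of the ratio between the high and none groups and the only gene of the 9 with a negative one. Both are on the plus strand, 5′ to 3′, with the motif in capitals, *Lamp1* at chr8:13159080-13159158 and *Mcoln1* at chr8:3500428-3500486.

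Lamp1: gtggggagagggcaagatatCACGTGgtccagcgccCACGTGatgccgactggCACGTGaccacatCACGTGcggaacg

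Mcoln1: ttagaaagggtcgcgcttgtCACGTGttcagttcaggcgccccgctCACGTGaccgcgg

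Of 32851 promoters of this length, 7.15% held CACGTG at least once and 0.594% at least 2 times, and 8 promoters, or 0.024%, held it 4 or more times. All 6 matches also read TCACGTG on at least 1 strand, a longer form that overlaps the first and was found in 3.77% of promoters. A match of letters is a description and not a binding site.

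*Npc2* (ENSMUSG00000021242, chromosome 12, 84754562 to 84773152, minus strand), the soluble cholesterol carrier, was higher the more plasma signal a group had. Its level was 393.5, 354.5 and 314.8 CPM in the none group for TH 1, 2 and 3, 409.5, 502.9 and 370.9 CPM in the low group, and 503.2, 570.04 and 492.5 CPM in the high group. The order none, low, high held within each of the 3 TH numbers, and all 3 values of plasma high lay above all 3 of plasma none. The group levels were 354.3 ± 39.4, 427.8 ± 67.9 and 521.9 ± 42.01 CPM. Taken within each TH number on log2(CPM + 1), plasma high exceeded plasma none by 0.56 ± 0.18, or 1.47-fold, and plasma low exceeded plasma none by 0.27 ± 0.22.

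*Npc1* (ENSMUSG00000024413, chromosome 18, 12189692 to 12236400, minus strand), its membrane partner, was expressed at a lower level and varied more. It stood at 89.9, 60.9 and 96.3 CPM in the none group, 107.7, 130.6 and 85.9 CPM in the low group, and 98.9, 142.4 and 116.9 CPM in the high group. Plasma high did not overlap plasma none, although the gap was small (98.9 against 96.3 CPM), and plasma low overlapped both. The log2 ratio of the high to the none group was 0.54 ± 0.58, made up of 0.14, 1.21 and 0.28 in TH 1, 2 and 3. For the low group against the none group it was 0.39 ± 0.64. Without TH 2 the first ratio was 0.21, and in cells of 100000 to 400000 reads alone it was 0.20. The *Npc1* gene body shares 967 bases with *Rmc1* (74.7 CPM) on the other strand, and use of strand in counting is not given in the sources used here, so reads of the pair may be shared.

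Among the membrane glycoproteins, *Lamp1* (ENSMUSG00000031447, chromosome 8, 13159161 to 13175338, plus strand), whose promoter is printed above, showed the most even difference. Its level was 1379, 1440.4 and 1251 CPM in the none group, 1576, 1854 and 1433 CPM in the low group, and 1705, 1969 and 1514 CPM in the high group. As for *Npc2*, the order none, low, high held in 3 of 3 TH numbers, and plasma high and plasma none did not overlap. Plasma high exceeded plasma none by 0.34 ± 0.094 (log2), plasma low exceeded plasma none by 0.25 ± 0.098, and plasma high exceeded plasma low by 0.093 ± 0.018. The last value ranged from 0.056 to 0.17 over 20 other ways of processing the counts. *Lamp1* and *Grtp1*, on the opposite strand at 149.8 CPM, share 3317 bases of gene body, so reads could also be exchanged here.

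*Lamp2* (ENSMUSG00000016534, chromosome X, 38401357 to 38456454, minus strand), the second main membrane glycoprotein, stood at 692, 749.7 and 869 CPM in the none group, 803, 845 and 766 CPM in the low group and 753, 893 and 1259 CPM in the high group. The groups overlapped, and the high mean of plasma high came from TH 3. The log2 ratio of the high to the none group was 0.30 ± 0.21, positive in 3 of 3 TH numbers, and that of plasma low to plasma none was 0.069 ± 0.22, with both signs.

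*Cd68* (ENSMUSG00000018774, chromosome 11, 69664213 to 69666153, minus strand), often used as a mark of phagocytic activity, differed more between TH numbers than between groups. Its level was 836, 729 and 531 CPM in the none group, 798, 853 and 593 CPM in the low group and 1032, 784 and 612 CPM in the high group. The groups overlapped, and TH 3 was lowest in each of them. Within TH numbers, plasma high exceeded plasma none by 0.20 ± 0.099 (log2), or 1.15-fold, and by 0.091 in cells of 100000 to 400000 reads alone.

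*Laptm5* (ENSMUSG00000028581, chromosome 4, 130913125 to 130936141, plus strand) was the most abundant of the 9 and had the smallest difference between the high and none groups. It stood at 4098, 4474 and 3984 CPM in the none group, 4003, 4553 and 3549 CPM in the low group and 4714, 4465 and 4054 CPM in the high group, with all groups overlapping. The log2 ratios were 0.075 ± 0.11 for plasma high against plasma none and −0.058 ± 0.098 for plasma low against plasma none, both smaller than their SD.

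*Psap* (ENSMUSG00000004207, chromosome 10, 60277627 to 60302597, plus strand), the saposin precursor, had the largest increase among the 9 genes from plasma none to plasma high. Its level was 747, 830.2 and 633 CPM in the none group, 736, 1787 and 815 CPM in the low group, and 1048, 1386 and 1111 CPM in the high group. All 3 values of plasma high exceeded all 3 of plasma none, while plasma low was spread from the level of plasma none in TH 1 to the highest value of all in TH 2. Plasma high exceeded plasma none by 0.68 ± 0.17 (log2), or 60.2% higher. The ratio of the low to the none group was 0.48 ± 0.57, with −0.022, 1.10 and 0.36 in TH 1, 2 and 3, and was 0.17 without TH 2 and 0.73 without TH 1.

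*Grn* (ENSMUSG00000034708, chromosome 11, 102430315 to 102437048, plus strand), for progranulin, had a smaller difference between the high and none groups than its partner *Psap*. It stood at 2021, 1456 and 1654 CPM in the none group, 1975, 1992 and 1706 CPM in the low group, and 2056, 2034 and 1516 CPM in the high group. The groups overlapped, and the low value of plasma none in TH 2 was set against 2 TH numbers with nearly equal levels or the opposite order. The log2 ratio of the high to the none group was 0.13 ± 0.32 and turned to −0.050 without TH 2.

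*Mcoln1* (ENSMUSG00000004567, chromosome 8, 3500457 to 3515232, plus strand), for the calcium channel TRPML1, went the other way. Its level was 50.7, 42.9 and 58.7 CPM in the none group, 63.6, 51.9 and 42.97 CPM in the low group, and 45.3, 14.2 and 30.9 CPM in the high group. Plasma high was lowest within each TH number, although its highest value overlapped the other groups. The log2 ratio was −0.87 ± 0.69 against plasma none and −0.92 ± 0.77 against plasma low, while plasma low and plasma none differed by 0.049 ± 0.43. Without TH 2 the first 2 ratios were −0.53 and −0.47. Few cells carry this value: *Mcoln1* had a read in 32 of 290 plasma high cells, and 1 cell held 21.3% of that group's reads. When the cell with the most *Mcoln1* reads was dropped from each sum, these 2 ratios were −1.25 and −1.33.

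**Figure D1:**
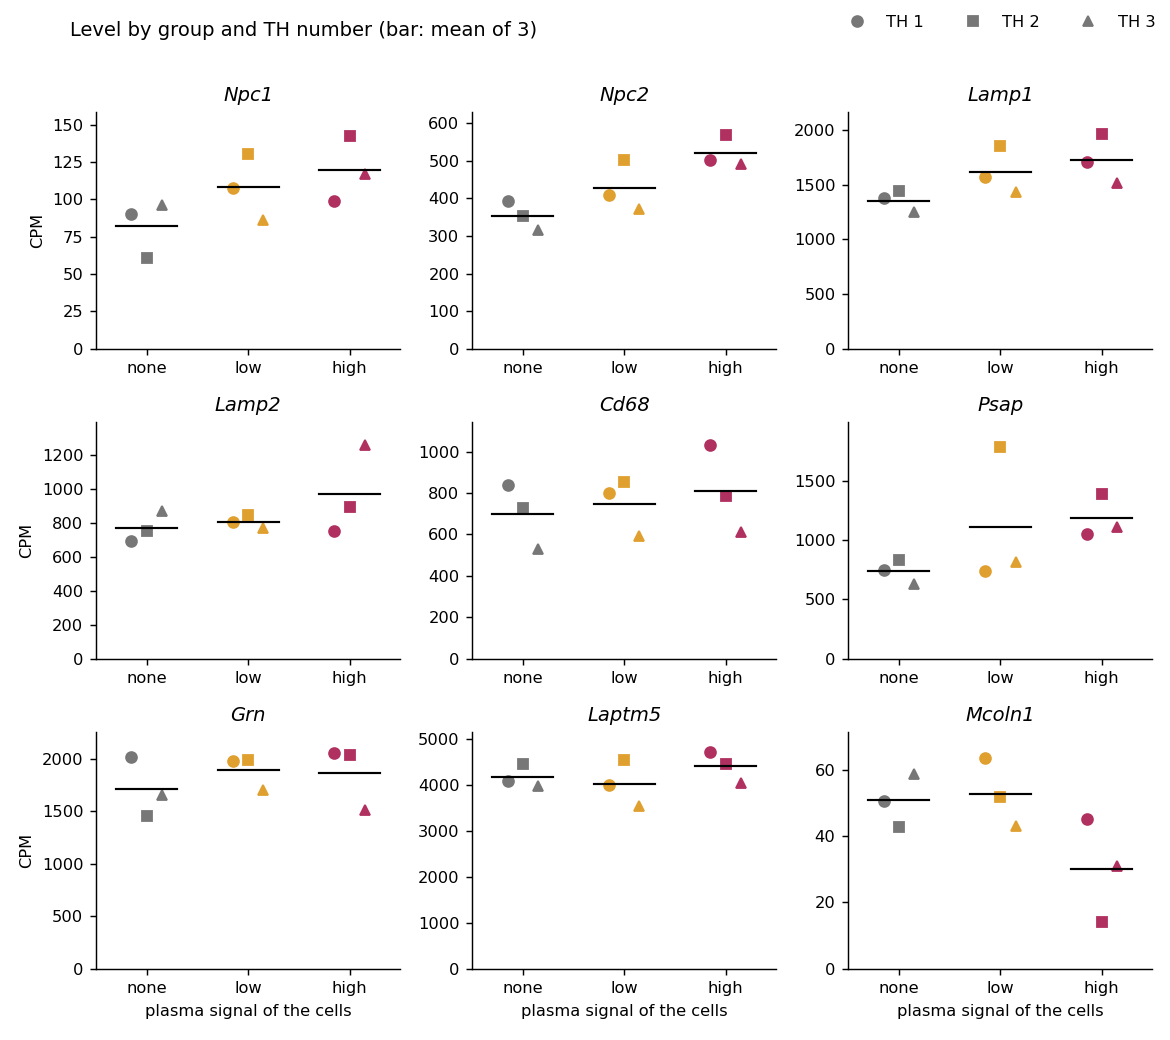
Level of each gene in CPM (y axis, starting at 0) by plasma signal of the cells (x axis), with 1 symbol per TH number and a bar for the mean of 3. *Npc1*, *Npc2*, *Lamp1* and *Psap* have all 3 plasma high values above all 3 plasma none values, and *Mcoln1* has its lowest mean in the high group (30.1 CPM).

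In place of a test, a gene was called at a mean difference of at least 1.5-fold with the same sign in 3 of 3 TH numbers, among genes whose mean reached 20 CPM and which were found in 10% of cells or more in either group. All 9 genes passed that filter. Between plasma high and plasma none, *Psap* was called higher, against 9.34% of 5534 genes tested, and *Mcoln1* was called lower, against 6.98% of them. These counts of 1 in 9 are near the background. Without a size limit, 6 of the 9 (*Npc1*, *Npc2*, *Lamp1*, *Lamp2*, *Cd68* and *Psap*) were higher in 3 of 3 TH numbers, against 18.8% of all genes tested, and 1 was lower, against 13.8%. Among genes of at least 200 CPM, which have a smaller spread, 5 of 7 were higher in 3 of 3 TH numbers, against 25.4% of 806 genes, and 0 were lower, against 19.6%. All 3 values of plasma high lay above all 3 of plasma none for 4 of 9, against 8.51% of genes tested. The median log2 ratio of the 9 genes was 0.30, beside 0.054 for all genes tested and 0.031 for those of at least 200 CPM. By TH number the median of the 9 was 0.20, 0.45 and 0.28. In cells of 100000 to 400000 reads alone it was 0.20, and with mitochondrial genes left out of the total it was 0.28. The part of plate position in these ratios was not tested.

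**Figure D2:**
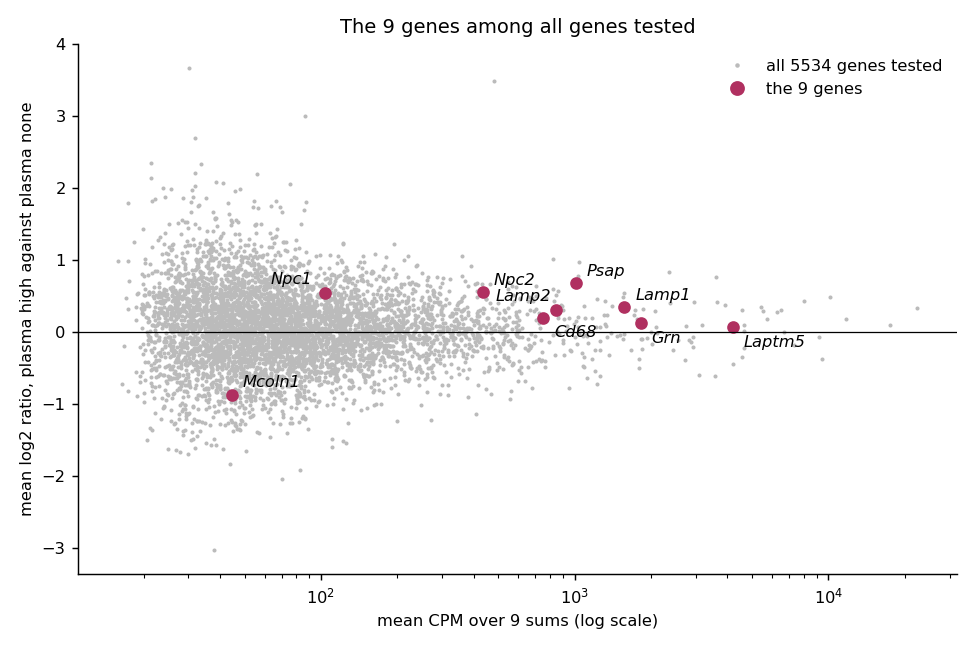
Mean log2 ratio of the high to the none group (y axis) against mean CPM over the 9 sums (x axis, log scale) for 5534 genes tested (grey points) and the 9 genes (labelled points). *Psap* (0.68) lies toward the upper edge of genes of similar level, 7 of the other genes lie between 0.075 and 0.56, and *Mcoln1* (−0.87) lies in the wide spread of genes with few reads.

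The 2 other comparisons share groups with the first and are not independent of it. Between plasma low and plasma none no gene of the 9 was called in either direction, against 6.03% of 5489 genes tested called higher and 4.19% lower. *Npc2* and *Lamp1* were higher in 3 of 3 TH numbers, against 16.7% of genes, and none was lower, against 11.8%. Among genes of at least 200 CPM the same pair made 2 of 7, against 17.2% of 779 genes higher and 14.4% lower. The median log2 ratio of the 9 was 0.15, beside 0.049 for all genes tested. Between plasma high and plasma low, none was called higher, against 5.48% of 5709 genes tested, and *Mcoln1* was called lower, against 5.66%. *Npc2* and *Lamp1* were again higher in 3 of 3 TH numbers, against 14.1% of genes, and *Mcoln1* was lower, against 13.1%. For genes of at least 200 CPM this was 2 of 7 higher, against 17.4% of 801 genes, and 0 lower, against 13.2%. The median of the 9 was 0.13, beside 0.0056 for all genes tested. These counts are near the background in both comparisons.

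**Figure D3:**
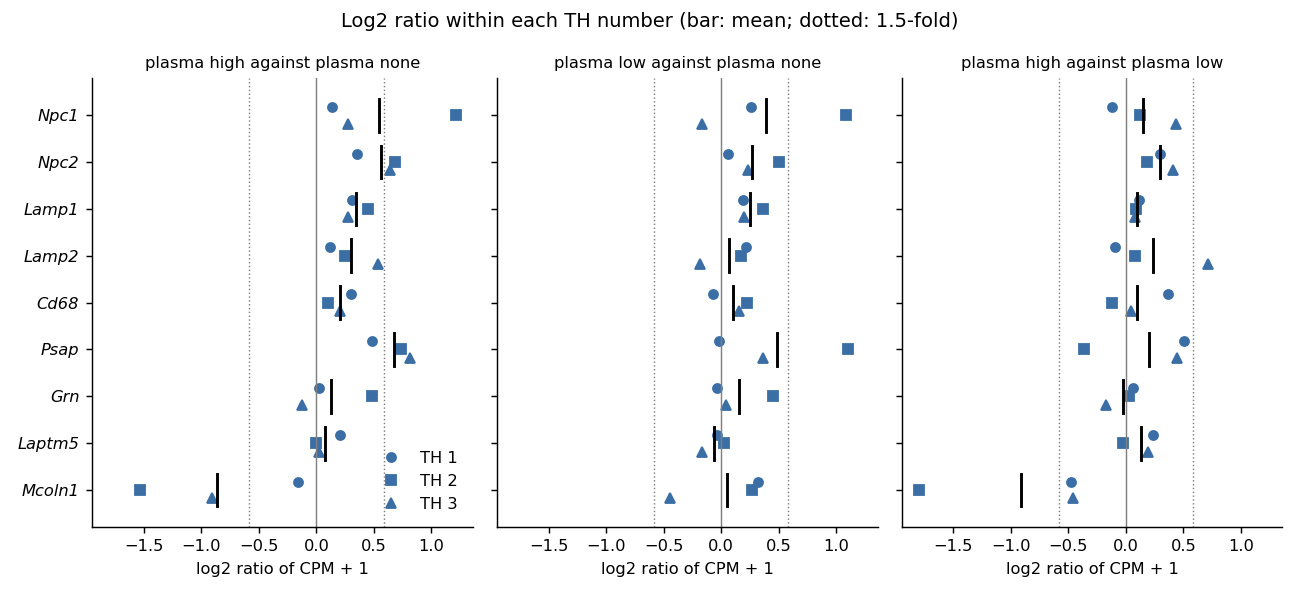
Log2 ratio of CPM + 1 (x axis) within each TH number (symbols) and its mean (bars) for the 9 genes (y axis) in the 3 comparisons, with dotted lines at 1.5-fold. *Npc2* and *Lamp1* lie to the right of 0 for every TH number in all 3 panels, while *Psap*, *Npc1* and *Lamp2* change sign between TH numbers in the middle and right panels.

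The share of cells with at least 1 read of a gene was compared after each cell was thinned to 50000 reads, because cells of plasma high were sequenced more deeply. *Npc2* had the clearest difference of the 9 in this measure. It had a read in 59.5, 53.98 and 53.8% of none group cells in TH 1, 2 and 3, in 81.4, 69.2 and 74.1% of low group cells and in 80.2, 72.9 and 81.7% of high group cells. Over pooled cells this was 55.8% (exact 95% interval 50.4 to 61.1%), 74.9% (70.1 to 79.4%) and 78.3% (73.1 to 82.9%), where the intervals cover counting error only. Without thinning the shares were 56.4, 75.8 and 81.4%. The difference in points, 22.5 ± 4.73 for plasma high against plasma none and 19.1 ± 3.46 for plasma low against plasma none, was the second largest among 806 and among 779 genes of at least 200 CPM. In cells with a read, the median *Npc2* level was 509 ± 59.5 CPM in the none group, 474 ± 64.3 in the low group and 503 ± 35.5 in the high group. These medians differed between groups by less than their SD, while the share of cells with a read did not overlap between the none group and either of the others. How many of all genes tested have such a gap in this share was not counted.

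*Psap* differed between plasma high and plasma none in both measures. At 50000 reads, 77.6, 75.2 and 77.8% of none group cells had a *Psap* read, compared with 88.98, 93.2 and 88.8% in the low group and 95.05, 90.6 and 89.2% in the high group. All values of plasma low and plasma high lay above all of plasma none, again with no count of how many of all genes do so. Without thinning the pooled shares were 80.3, 92.02 and 92.4%. In cells with a read the median level was 729 ± 87.7 CPM in the none group, 1005 ± 442 in the low group and 1061 ± 252.7 in the high group. By TH number these medians were 657, 827 and 703 CPM in the none group and 708, 1513 and 795 CPM in the low group, which overlap. Those of the high group were 872, 1348 and 963 CPM.

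*Lamp2* was found in 67.6 ± 2.14% of none, 78.3 ± 2.62% of low and 81.01 ± 5.21% of high group cells, and *Lamp1* in 86.98 ± 2.41%, 95.2 ± 1.33% and 94.05 ± 3.46%. For *Cd68* the shares were 80.3 ± 4.43%, 86.01 ± 5.59% and 87.2 ± 2.51%, and for *Grn* they were 93.9 ± 2.29%, 96.01 ± 1.32% and 97.2 ± 2.63%. *Laptm5* was found in 99.7 ± 0.493%, 99.4 ± 0.496% and 100% of cells, which leaves it no room to differ. *Npc1* was found in 23.1 ± 5.93%, 30.2 ± 5.61% and 26.96 ± 3.76% of cells, and *Mcoln1* in 11.5 ± 1.61%, 13.1 ± 2.63% and 8.89 ± 3.84%. Without thinning the pooled shares in the none group, low and high were 71.4, 78.3 and 84.1% for *Lamp2*, 27.5, 35.04 and 32.8% for *Npc1*, and 12.4, 13.4 and 11.03% for *Mcoln1*. As means over TH numbers they were 87.8, 95.2 and 94.4% for *Lamp1*, 82.05, 87.2 and 89.996% for *Cd68* and 94.5, 96.3 and 97.5% for *Grn*, with *Laptm5* as above. A cell of plasma none had a read of 5.96 ± 0.132 of the 9 genes on average, against 6.63 ± 0.224 in the low group and 6.65 ± 0.24 in the high group.

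More genes were found per cell in the groups with plasma signal. The median number of genes per cell by TH number was 1631 to 1729.5 in the none group, 1768 to 2213 in the low group and 1882.5 to 2045 in the high group, before thinning. At equal depth, the share of cells with a read was higher in the high group than in the none group in 3 of 3 TH numbers for 7 of the 9, against 34.8% of genes tested, and for 6 of the 7 of at least 200 CPM, against 41.7%. For plasma low against plasma none the counts were the same, 7 of 9 against 39.6% and 6 of 7 against 48%. When cells with enough reads were thinned to 100000 instead, *Npc1* was higher in 1 of 3 TH numbers for plasma high against plasma none. *Grn* was then higher in 2 of 3 for plasma low against plasma none, and the other genes counted kept 3 of 3. The median difference of the 9 genes was 6.90 points for plasma high and 7.12 points for plasma low, beside 2.54 and 3.02 points for all genes tested. For genes of at least 200 CPM, which leave out *Npc1* and *Mcoln1*, it was 3.97 and 4.86 points, with 90th percentiles of 12.4 and 10.8. How far the higher number of genes per cell enters the shares of the 9 was not tested.

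**Figure D4:**
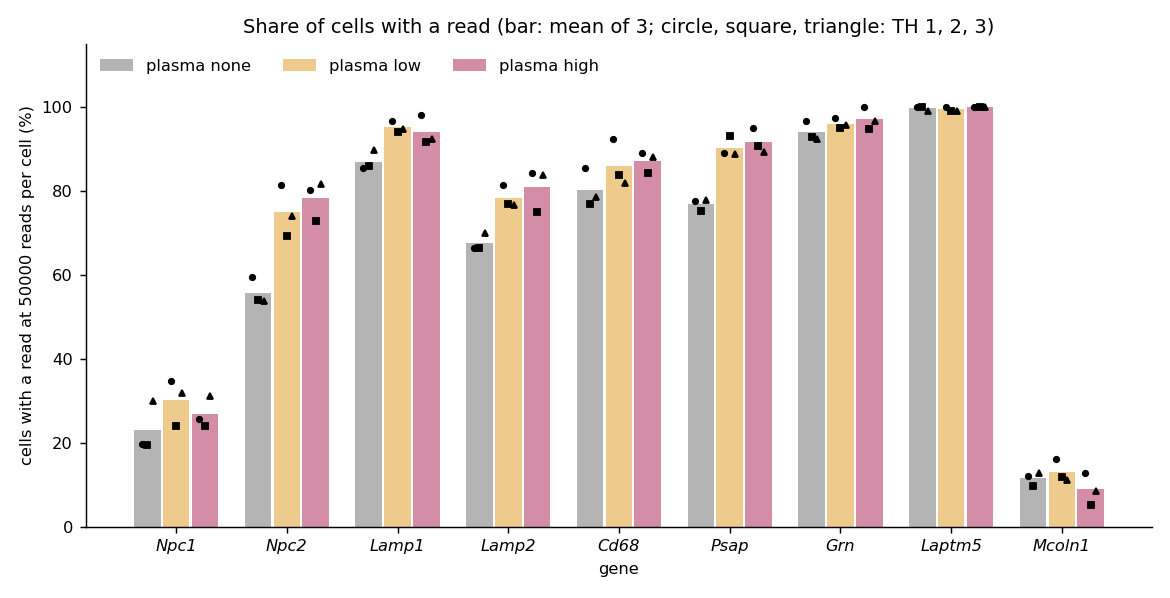
Share of cells with a read at 50000 reads per cell (y axis, in percent) for each gene (x axis) and group, with bars for the mean of 3 TH numbers and symbols for each. *Npc2* has the largest step from plasma none (55.8%) to plasma low (74.9%), *Psap* and *Lamp2* have smaller ones, and *Laptm5* is at or near 100% throughout.

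Levels of different genes were compared per kilobase of exon, as the mean over the 9 sums. The order was *Laptm5* (1112 ± 96.7 CPM per kilobase), *Cd68* (598 ± 123.5), *Lamp1* (587 ± 87.2), *Grn* (525 ± 69.1), *Psap* (368.2 ± 135.9), *Lamp2* (88.7 ± 17.5), *Npc2* (79.9 ± 15.7), *Npc1* (9.13 ± 2.17) and *Mcoln1* (5.90 ± 1.97), with SD over the 9 sums. *Laptm5* ranked 30 among 17996 genes with a read by this measure, and *Mcoln1* ranked 6196. The steps from *Laptm5* to *Cd68*, from *Psap* to *Lamp2* and from *Npc2* to *Npc1* held in 9 of 9 sums. *Cd68* and *Lamp1* were in this order in 4 of 9 sums and *Lamp2* and *Npc2* in 6 of 9, so these neighbours did not differ beyond their spread. Counted on the longest coding transcript in place of all exons, a choice made after the data were seen, *Grn* (779 CPM per kilobase) and *Lamp1* (704) stood above *Cd68* (611), and *Mcoln1* (21.6) above *Npc1* (19.8). The sterol carrier *Npc2* was measured at a level 8.76-fold that of *Npc1* per kilobase of exon. On the longest coding transcript the gap was smaller, with *Npc2* at 131.8 and *Npc1* at 19.8 CPM per kilobase. Across single cells, the levels of the 9 genes were nearly unrelated: Pearson's r over 36 pairs ran from −0.004 to 0.155 with a median of 0.034, after the mean of each group and TH number was removed. Counts were sparsest for *Npc1* and *Mcoln1*, while the highest value, of *Lamp1* and *Laptm5*, came from genes found in most cells. No more was read from these values.

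For each gene the 3 genes of at least 100 CPM with the most similar pattern were taken from 1751 genes, by Pearson's r of log2(CPM + 1) over the 9 sums with each TH number centred. These sums share groups and TH numbers, and with 9 points high values are easily reached among so many genes. *Lamp1* was nearest to the lysosomal protease gene *Ctsb* (r = 0.986), followed by *mt-Nd4* (0.985) and its antisense neighbour *Grtp1* (0.984). *Npc2* was nearest to *Rpn2* (0.982), *Cd81* (0.979) and *Necap2* (0.972), and *Psap* to *Rps3a1* (0.966), *Wls* (0.963) and *Cst3* (0.958), the gene of the protease inhibitor cystatin C. *Grn* was nearest to *Creg1* (0.976), which encodes a glycoprotein of the lysosome, then to *Cttnbp2nl* (0.975) and *Hsbp1* (0.953). *Npc1* was nearest to *Ubb* (0.956), *Stard3nl* (0.95) and *Parvg* (0.946), where the product of *Stard3nl* is a protein of late endosome membranes. *Lamp2* was nearest to *Psmd12* (0.966), *Cd68* to *Il13ra1* (0.972), *Laptm5* to the kinase gene *Btk* (0.915) and *Mcoln1* to *Sar1b* (0.959). Among the 9 themselves, *Npc2* and *Lamp1* had the highest value (0.927), followed by *Npc2* and *Psap* (0.904). *Psap* and *Grn* had a value of 0.563.

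Other genes for lysosomal membrane proteins were split between both directions. Of 32 such genes (transporters included), 25 were tested between plasma high and plasma none, with 13 higher, 12 lower and a median log2 ratio of 0.0051. Calls between these groups in this and the next lists stand beside the background given above, 9.34% higher and 6.98% lower. For plasma low against plasma none that background was 6.03% higher and 4.19% lower. For plasma high against plasma low it was 5.48% higher and 5.66% lower. *Sidt2*, for a lysosomal nucleic acid transporter, was called higher (21.1 ± 6.88 CPM in the none group and 34.5 ± 10.3 in the high group, log2 ratio 0.69 ± 0.15), as was *Mfsd1* (155.7 ± 57.1 and 228.3 ± 23.9 CPM, 0.60 ± 0.40). *Sidt2* had a read in 8.67% of none, 12.3% of low and 15.5% of high group cells. Against plasma none it thus passed the 10% filter only through the group where it was higher, which favours such a call. *Ctns*, for the cystine exporter cystinosin, was called lower (96.8 ± 24.4 and 60.5 ± 11.4 CPM, −0.66 ± 0.11). *Tmem106b* had the lowest mean ratio but was not called, with −3.21, 0.093 and −0.41 in TH 1, 2 and 3. Between plasma low and plasma none *Sidt2* was called higher (0.82 ± 0.70) and *Laptm4b* (−0.66 ± 0.27), *Lmbrd1* (−0.83 ± 0.61) and *Cln3* (−0.94 ± 0.21) were called lower. Between plasma high and plasma low *Cln3* was called higher (0.94 ± 0.85) and *Slc15a3* lower (−0.98 ± 0.18).

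In the list for sterol handling around NPC1 and NPC2, 14 of 24 genes were tested between plasma high and plasma none, with 8 higher, 6 lower and a median log2 ratio of 0.078. Of these, 3 were called higher. *Soat1*, for the enzyme that esterifies cholesterol for storage, was at 105.5 ± 33.4 CPM in the none group and 170.4 ± 18.05 in the high group, a ratio of 0.74 ± 0.47. *Abca1*, for an exporter of cholesterol at the cell surface, was at 97.6 ± 23.98 and 153.3 ± 52.4 CPM (0.63 ± 0.32), and *Osbpl9*, for an oxysterol binding protein relative, at 56.7 ± 29.5 and 84.96 ± 11.9 CPM (0.73 ± 0.97, mostly from TH 3). *Abcg1*, for another sterol exporter, went the other way, with a ratio of −0.48 at a mean of 1089 CPM, and was not called. *Mylip*, for the ubiquitin ligase that degrades the LDL receptor, was called lower, at 1197 ± 56.7 CPM in the none group, 949.5 ± 285.2 in the low group and 705 ± 99.9 in the high group (−0.77 ± 0.21). *Scap*, for the sterol sensor that escorts SREBP transcription factors, had the highest ratio but was not called (0.79 ± 1.02, with 1.90, 0.57 and −0.11 in TH 1, 2 and 3). It passed the filter only through the high group (12.4% of cells with a read, against 9.54% in the none group). Between plasma low and plasma none only *Soat1* was called in this list (0.62 ± 0.24), and between plasma high and plasma low none of the 14 genes tested was.

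Of the 15 listed partners of saposins and progranulin, 14 were tested between plasma high and plasma none, with a median log2 ratio of 0.13. *Gm2a*, which like the saposins encodes an activator of glycolipid breakdown, was at 528 ± 44.6 CPM in the none group, 712 ± 237.5 in the low group and 747 ± 102.8 in the high group, a ratio of 0.50 ± 0.17 that was positive in 3 of 3 TH numbers and short of 1.5-fold. *Neu1*, for the lysosomal sialidase, was called lower (96.3 ± 28.3 and 39.9 ± 14.6 CPM, −1.28 ± 0.95). *Galc*, for the enzyme that degrades galactosylceramide with the help of a saposin, had 8.07 ± 4.48 CPM in the none group and 48.1 ± 36.3 in the high group, with ratios of 2.77, 3.82 and −0.15 in TH 1, 2 and 3, and was not called. *Glb1*, for a beta-galactosidase, had a ratio of −0.28 ± 0.41. Between plasma high and plasma low, *Galc* (2.04 ± 1.30) and the sulfatase gene *Arsa* (0.94 ± 0.62) were called higher and *Glb1* (−0.64 ± 0.47) and *Neu1* (−0.86 ± 0.76) lower. *Galc* had a read in 9.12% of low and 13.1% of high group cells, and *Arsa* in 9.40 and 14.1%. Both thus passed the filter only through the high group, which favours a call of higher. Between plasma low and plasma none none of 13 genes tested was called.

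Of 14 genes for lysosomal calcium channels and the control of TFEB, 8 were tested between plasma high and plasma none, 0 were called, and the median log2 ratio was 0.0041. The channel genes of the list, *Mcoln2*, *Mcoln3*, *Tpcn1* and *Tpcn2*, were not among those tested, so these values say nothing of channels. *Tfeb* had a ratio of 0.135 and *Tfe3* one of −0.009. The calcineurin subunit genes *Ppp3r1* and *Ppp3ca* had ratios of 0.25 ± 1.01 and −0.29 ± 0.25, and *Mitf*, for a relative of TFEB, −0.24 ± 1.36. *Fig4*, for a regulator of lysosomal phosphoinositides, had 1.10 ± 1.25 but too few cells with a read to be tested. *Ppp3r1* was called higher between plasma low and plasma none (0.69 ± 0.40).

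**Figure D5:**
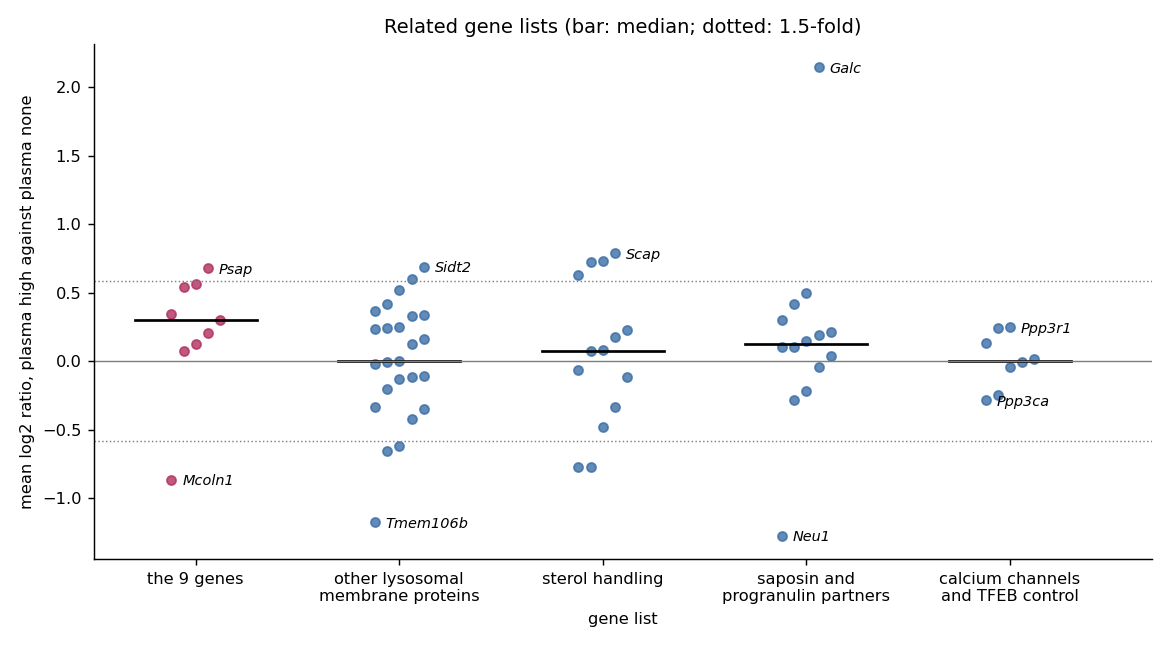
Mean log2 ratio of the high to the none group (y axis) for the tested genes of each list (x axis), with a bar at each list's median and dotted lines at 1.5-fold. The 9 genes have a median of 0.30, beside 0.0051 for other lysosomal membrane proteins, 0.078 for sterol handling, 0.13 for partners of saposins and progranulin and 0.0041 for calcium channels and TFEB control, and the lists spread widely around them. No channel gene of the last list was tested.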

How the data were processed

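Smart-seq2 read counts of 1111 labelled cells in 3 groups were analysed from 3 deposited tables, 1 per TH number, each with 35583 genes. Of these cells, 1045 matched a column by well and TH number and 66 were not analysed here. The deposited values are whole read counts per gene and cell, except in 1 column that the authors deposited with 2 values that are not whole, which was handled as a column of expected counts and rounded. Per the file headers, the TH 2 and TH 3 columns come from alignments reduced to top hits, and the TH 1 columns carry no such note. The submitters' processing notes name bcl2fastq, Trim Galore, STAR 2.5.3a, mm10 and Seurat, with no role or order. Neither the counting tool nor whether it used strand is given in the sources used here.

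Cells with at least 50000 reads and 500 genes were kept (987). Counts were summed per group and TH number, scaled with TMM factors (edgeR 4.0.16, R 4.3.3), and compared as log2(CPM + 1) within each TH number. The scripts were tested on simulated data. Since each group is 1 sample of cells, edgeR and DESeq2 1.42.0 gave fold changes as alternatives only, with no p-value. Exon lengths came from GENCODE M21, where 35546 gene IDs were found. The 9 genes, the gene lists and the rules were chosen with earlier results of these data known. From each list the 2 highest and 2 lowest ratios of plasma high to plasma none at a mean of at least 20 CPM were named, with all genes called in any comparison, except that 1 gene is not reported here. Ranking by coding transcript length, and the detection background among genes of at least 200 CPM, were added after seeing the data.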

Additional observations from a re-analysis of the deposited data

How the results depend on the processing

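Over 20 alternatives, the median log2 ratio of the 9 genes was 0.20 to 0.36 for plasma high against plasma none, 0.046 to 0.28 for plasma low against plasma none and 0.066 to 0.21 for plasma high against plasma low, positive throughout. No alternative reversed a called gene. The number of the 9 genes called between plasma high and plasma none was 2. It was 3 with cells weighted equally and with cells thinned before summing, where *Npc2* (0.68 and 0.73) joined *Psap* and *Mcoln1*, 4 with the outermost wells left out (*Npc1*, *Npc2*, *Psap* and *Mcoln1*), and 1 to 4 when each TH number was left out in turn, with 1 (*Psap*) without TH 2, and 2 under the other 11 alternatives that gave it. For plasma low against plasma none that count was 0 in the whole data and 0 to 1 with a TH number left out, with *Psap* called without TH 1 and *Npc1* without TH 3, and for plasma high against plasma low it was 1 and 0 to 1, with 0 without TH 2. Since 2 TH numbers more easily share a sign than 3, counts with one left out are easier to reach. Between plasma high and plasma none, *Psap* lay between 0.61 and 0.78, *Npc2* between 0.50 and 0.73, *Lamp1* between 0.29 and 0.40, and *Mcoln1* between −1.25 and −0.53 over the 20 alternatives. With the TH number as a replicate block in edgeR, the ratios of *Psap* and *Mcoln1* were 0.65 and −0.88 and the median of the 9 was 0.29, against 0.66, −0.77 and 0.31 with no replicate block. Whether TH numbers pair cells of 1 animal is not stated in the labels. Of all genes tested, 16.3, 10.2 and 11.1% were called in the 3 comparisons in the order above, and 10.2, 2.18 and 3.00% of those of at least 200 CPM. *Npc1* and *Mcoln1* had a read in few cells, which limits their precision.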
